A study of Homo sapiens with 16 samples.

Results

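The response to an siRNA labelled as targeting RECK was compared between 2 human breast cell lines, Hs606T and Hs343T, on 8 of the 16 Affymetrix U133 2.0 arrays of the series. The 8 arrays fall into 4 groups of 2: Hs606T labelled siRECK, Hs606T labelled siSCR (scrambled siRNA), Hs343T labelled siRECK and Hs343T labelled siSCR. Both lines came from ATCC, a cell repository, and the remaining 8 arrays hold MDA-MB-231 and its derivative LM24175 with an empty vector or a RECK construct. The quantity studied is the response difference, which is labelled siRECK minus labelled siSCR in Hs606T, minus the same in Hs343T, on the log2 scale, so a positive value means a higher response in Hs606T. All 22215 probe sets other than controls were tested, and 11963 genes were read from them. The classes of genes below were chosen by the values of these tests, and the gene lists with earlier results of these data known, so both are descriptions. The arrays read bulk RNA, so a change in the share of cells that express a gene and a change in RNA per cell cannot be told apart.

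RECK is a membrane-anchored glycoprotein that inhibits matrix metalloproteinases, the enzymes with which cells cut the extracellular matrix. The interferon response takes up much of the account below. In it, RNA sensors such as RIGI and IFIH1 switch on the gene of interferon beta, IFNB1. The secreted interferon then acts through JAK kinases and STAT and IRF factors on genes whose products hinder viruses, present antigens and attract leukocytes.

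Both lines carry breast cancer in their labels, and the markers were those of mesenchymal cells. The 10 fibroblast and mesenchymal markers, among them collagen genes and VIM, had a mean level of 12.90 and 12.86 on the Hs606T arrays labelled siRECK, against 12.76 and 12.79 with siSCR, and of 11.98 and 12.03 on the Hs343T arrays labelled siRECK, against 12.12 and 12.15 with siSCR. None of the 10 lay below an array's lower quartile of all probe sets. The 10 epithelial markers averaged between 6.14 and 6.54 on the 8 arrays, with 2 or 3 of them below the lower quartile, although KRT18 and KRT19 were well measured. Leukocyte and endothelial markers averaged between 4.66 and 5.24 on the 8 arrays, and their part in the responses was not tested.

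The medians of the 8 arrays lay between 6.42 and 6.51 log2 units. Over all probe sets, arrays of 1 group correlated at 0.9969 to 0.9975. In Hs606T, arrays labelled siRECK correlated with those labelled siSCR at 0.9951 to 0.9961, and in Hs343T at 0.9716 to 0.9719. Whether the 2 arrays of a group hold RNA of separate cultures is not stated, so p-values here reflect array-to-array spread that may be purely technical, and precision is limited by having 2 arrays a group. Every adjusted p is from limma's moderated test with Benjamini-Hochberg adjustment over all probe sets, and a gene passed when it was under 0.05. The spread of a probe set was estimated from all 16 arrays. SEs, intervals and p-values therefore also rest on the MDA-MB-231 and LM24175 arrays.

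RECK itself went against the labels in both lines. It read 11.17 and 11.02 on the Hs606T arrays labelled siRECK, against 8.74 and 8.65 on those labelled siSCR. In Hs343T it read 11.31 and 11.24 on the arrays labelled siRECK, against 6.07 and 5.52 on those labelled siSCR. RECK was therefore 5.29-fold higher on the Hs606T arrays labelled siRECK (log2 2.40, SE 0.16, adjusted p = 1.07e-05) and 44.5-fold higher on the Hs343T arrays labelled siRECK (log2 5.48, SE 0.16, adjusted p = 1.12e-10). The response difference was -3.07 (SE 0.22, adjusted p = 1.47e-06). The siRECK arrays of the 2 lines stood close together, while the siSCR arrays of Hs343T lay far below those of Hs606T. The 2 other RECK probe sets read between 3.32 and 6.66 on the 8 arrays, and 1 of them, a cross-hybridising one, passed as higher with siRECK in Hs343T (0.46, adjusted p = 0.00157). Neither passed in Hs606T, and their response differences of -0.29 and -0.37 did not pass (adjusted p = 0.144 and 0.252). Arrays are called by their labels throughout, and a value higher "with siRECK" means higher on the arrays so labelled. Whether the labels siRECK and siSCR were exchanged was not tested, and an exchange in both lines would turn the sign of every response and response difference given here.

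The Hs343T response was far wider than the Hs606T response. In Hs606T 116 of 11963 genes passed, 83 higher (0.694%) and 33 lower (0.276%) with siRECK, together 0.97% of the genes tested. In Hs343T 3326 genes passed, 1369 higher (11.4%) and 1957 lower (16.4%), together 27.8%. After median centring of the arrays these Hs343T counts were 1538 and 1593. The response difference itself passed for 2254 genes, or 18.8%, with 1272 higher (10.6%) and 982 lower (8.21%) in Hs606T relative to Hs343T, and with median centring 1036 and 1074. The 99th percentile of the absolute difference was 0.69 log2 units in Hs606T and 2.62 in Hs343T. The median over all genes was -0.01 in Hs606T, -0.06 in Hs343T and 0.04 in the response difference. Hs606T calls were the more fragile: leaving out either Hs606T siSCR array or the first Hs606T siRECK array gave 40 to 44 such calls. At the threshold, PLCL2 was just inside with a response difference of -0.63 and PEX5 just outside with 0.41.

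**Figure D1:**
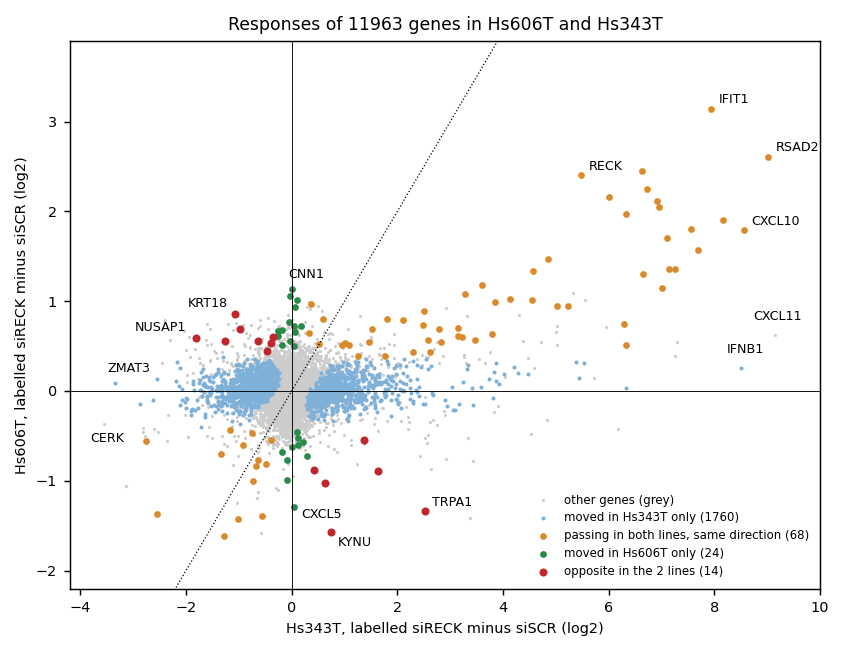
Each point is 1 of 11963 genes, with its labelled siRECK minus siSCR difference in Hs606T on the y axis and in Hs343T on the x axis, both in log2 units. Red marks the 14 genes that passed in opposite directions, green the 24 moved in Hs606T only, blue the 1760 moved in Hs343T only and orange the 68 that passed in both lines in the same direction. Grey points are all others, including CXCL11. Its Hs606T interval, with a spread estimated from all 16 arrays, was too wide for it to be placed. The dotted line marks equal responses.

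Across all 11963 genes the 2 responses correlated at Pearson's r = 0.262, a description across genes, which share arrays and are not independent. Of the genes that passed in a line, 82 passed in both, 68 in the same direction (0.568% of all genes) and 14 in opposite directions. Over those 82 genes r was 0.784, but they were chosen by these same values, so a high r is in part set by the choice. A gene was counted as opposite when it passed in each line with opposite signs and in the response difference. It was counted as moved in 1 line only when it passed there and in the response difference, did not pass in the other line, and had a 95% interval in the other line that lay within 1.5-fold either way.

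Opposite responses were few, with 14 genes or 0.117% of those tested. Of these, 8 (0.0669%) were higher with siRECK in Hs606T and lower in Hs343T, and 6 (0.0502%) were lower in Hs606T and higher in Hs343T. KRT18, KYNU, MAP3K5 and TRPA1 kept both calls and both directions under all 16 alternative settings. The other 10 lost a call when 1 or more arrays were left out.

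TRPA1, a cation channel gated by irritants, had the largest response difference of the 14, although that of its 1 other probe set did not pass. It read 4.27 and 4.61 on the Hs606T arrays labelled siRECK, against 6.03 and 5.52 on those labelled siSCR. Its Hs343T levels were 8.34 and 8.21 with siRECK, against 5.77 and 5.74 with siSCR. The siSCR levels of the lines were thus alike, and the siRECK arrays lay below them in Hs606T and above them in Hs343T with no overlap. The difference was -1.34 in Hs606T (SE 0.15, adjusted p = 0.00073) and 2.52 in Hs343T (SE 0.15, adjusted p = 7.64e-08), a response difference of -3.85. KYNU, the kynureninase of tryptophan breakdown, read 3.99 and 4.06 with siRECK, against 5.54 and 5.65 with siSCR in Hs606T. In Hs343T it stood far higher, at 10.28 and 10.42 with siRECK, against 9.67 and 9.54 with siSCR. It was 2.97-fold lower with siRECK in Hs606T (adjusted p = 6.87e-06) and 1.67-fold higher in Hs343T (adjusted p = 0.00011), and the response differences of its 3 other probe sets passed with the same sign. The Hs606T arrays labelled siRECK held KYNU below the arrays' lower quartile of all probe sets, which ran from 4.53 to 4.67. On the same arrays TRPA1, at 4.27 and 4.61, lay near that quartile.

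MAP3K5, a kinase that signals oxidative stress to the p38 and JNK pathways, read 7.20 on both Hs606T arrays labelled siRECK, against 8.16 and 8.28 with siSCR. Its Hs343T levels were 7.81 and 7.77 with siRECK, against 7.11 and 7.22 with siSCR. It was 2.03-fold lower in Hs606T (adjusted p = 0.00017) and 1.54-fold higher in Hs343T (adjusted p = 0.000274). TXNIP, which binds and inhibits thioredoxin, read 9.17 and 9.26 with siRECK, against 9.81 and 9.72 with siSCR in Hs606T. In Hs343T TXNIP read 12.19 and 12.20 with siRECK, against 10.83 and 10.81 with siSCR. Its differences were -0.55 (adjusted p = 0.0061) and 1.37 (adjusted p = 7.08e-08), and its groups did not overlap in either line. RAB27B, a small GTPase of vesicle secretion, had differences of -0.90 in Hs606T and 1.63 in Hs343T. Its Hs343T siSCR levels of 4.25 and 4.59 lay below the lower quartile. TNFAIP6, a secreted hyaluronan-binding protein induced by inflammation, had differences of -0.88 and 0.42, and its call as opposite survived 1 of the 8 leave-outs.

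KRT18, a keratin of simple epithelia, led the genes that were higher in Hs606T and lower in Hs343T. It read 9.17 and 9.23 on the Hs606T arrays labelled siRECK, against 8.34 and 8.35 with siSCR. In Hs343T it read 9.08 and 9.13 with siRECK, against 10.20 and 10.17 with siSCR. The siRECK arrays of both lines thus stood at nearly 1 level, while the siSCR arrays stood below it in Hs606T and above it in Hs343T. The differences were 0.86 in Hs606T (SE 0.08, adjusted p = 0.000315) and -1.08 in Hs343T (SE 0.08, adjusted p = 1.12e-06). KRT18 was read from a cross-hybridising probe set, so related sequences may share its signal.

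The other 7 genes of that direction had smaller Hs606T responses. NUSAP1, which bundles spindle microtubules in mitosis, read 5.81 and 5.59 with siRECK, against 5.03 and 5.20 with siSCR in Hs606T, and 6.41 and 6.22 with siRECK, against 8.22 and 8.03 with siSCR in Hs343T. Its differences were 0.59 (adjusted p = 0.0495) and -1.81 (adjusted p = 2.94e-07). MEST, an imprinted gene of mesoderm, had differences of 0.56 and -1.26, MFAP3L of 0.69 and -0.98 (the response differences of its 3 other probe sets did not pass), and RAB33A, a small GTPase, of 0.55 and -0.64, each in Hs606T first. NOX4, an NADPH oxidase that makes hydrogen peroxide, had 0.53 in Hs606T and -0.39 in Hs343T. Its Hs343T levels of 4.05 and 3.96 with siRECK, against 4.38 and 4.42 with siSCR, all lay below the arrays' lower quartile. The Hs343T siRECK levels of RAB33A, 4.52 and 4.23, did too. NOX4 kept the opposite call in 1 of 8 leave-outs. SDC2, a heparan sulfate proteoglycan of the cell surface, had 0.60 and -0.36, and the response differences of both its other probe sets passed with the same sign. VPS45, a vesicle fusion factor, had 0.44 and -0.47, but the response difference of its other probe set passed with the other sign. NUSAP1, MEST and VPS45 had Hs606T adjusted p-values of 0.0495 and kept the opposite call in 0 of 8 leave-outs.

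**Figure D2:**
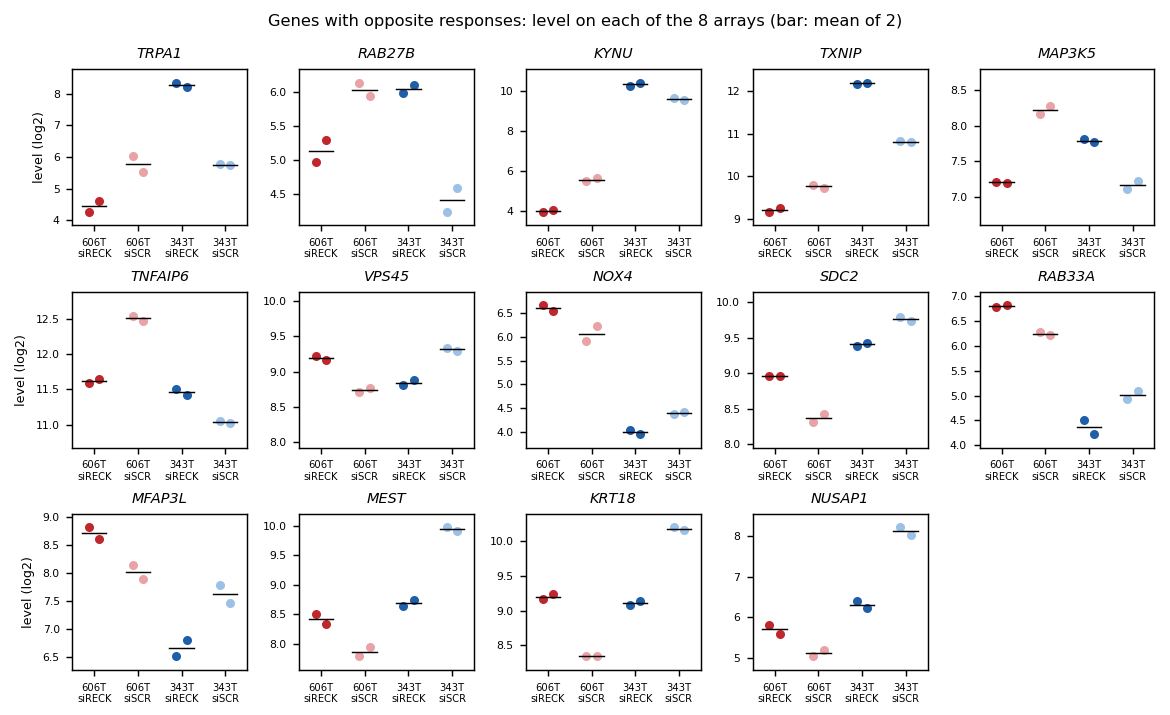
Level in log2 units of the 14 genes of opposite response on each of the 8 arrays, with 1 point per array and a bar at the mean of the 2. Red columns are Hs606T and blue columns Hs343T, each with siRECK left of siSCR. The 6 genes from TRPA1 to TNFAIP6 were lower with siRECK in Hs606T and higher in Hs343T, and the 8 from VPS45 to NUSAP1 the other way round.

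In Hs606T only, 24 genes or 0.201% moved, 14 higher (0.117%) and 10 lower (0.0836%) with siRECK, and 26 without the condition on the Hs343T interval. The lower ones were led by 2 CXC chemokines that attract neutrophils. CXCL5 read 9.90 and 9.64 on the Hs606T arrays labelled siRECK, against 11.08 and 11.05 with siSCR. Its Hs343T levels were 10.25 and 10.39 with siRECK, against 10.24 and 10.32 with siSCR, so those groups overlapped. It was 2.45-fold lower in Hs606T (log2 -1.29, SE 0.13, adjusted p = 0.000354), the Hs343T difference was 0.04 with a 95% interval from -0.24 to 0.32, and it was the only gene of the 24 to hold its place under all 16 alternative settings. CXCL5 was read from a cross-hybridising probe set, and the response difference of 1 of its 2 other probe sets passed with the same sign. CXCL1 read 11.76 and 11.64 with siRECK, against 12.68 and 12.70 with siSCR in Hs606T. In Hs343T it read 11.29 and 11.36 with siRECK, against 11.43 and 11.39 with siSCR, a difference of -0.09 (95% interval -0.39 to 0.21).

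IL33, an alarmin cytokine of barrier and stromal cells, had a difference of -0.73 in Hs606T. It read 10.14 and 9.85 with siRECK there, against 10.71 and 10.73 with siSCR. In Hs343T IL33 read 12.40 and 12.50 with siRECK, against 12.18 and 12.13 with siSCR, so those groups did not overlap. That difference of 0.29, with an interval from 0.07 to 0.52, had the other sign and narrowly did not pass (adjusted p = 0.0603). IL33 held its place as moved in Hs606T only in 2 of 8 leave-outs. COL13A1, a membrane collagen, had a difference of -0.77 in Hs606T and -0.09 in Hs343T. SLC43A3 had -0.68 and -0.19, and CALCR, the calcitonin receptor, -0.63 and 0.00. The response differences of the 2 other probe sets of COL13A1 and of the 1 other each of SLC43A3 and CALCR did not pass. The remaining 4 lower genes were PDZK1IP1 (-0.60), the repressor KLF11 (-0.57), LTF, which encodes lactoferrin (-0.53), and the kinase gene FYN (-0.46). PDZK1IP1 and LTF lost their place with a filter on low levels. PDZK1IP1, LTF and KLF11 lost it in a fit of the 8 arrays alone. The 10 Hs606T differences thus lay between -1.29 and -0.46, while their Hs343T differences lay between -0.19 and 0.29.

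The largest Hs606T difference of the 14 higher genes was that of CNN1. CNN1, the smooth-muscle calponin, read 11.08 and 10.89 with siRECK, against 9.86 and 9.84 with siSCR in Hs606T. The Hs343T arrays read 7.13 and 7.23 with siRECK, against 7.14 and 7.19 with siSCR, so the Hs343T groups overlapped, with an interval from -0.44 to 0.47. Its Hs606T difference was 1.13 (SE 0.21, adjusted p = 0.0259), and it held its place in 0 of 8 leave-outs. LIMCH1, an activator of non-muscle myosin, had differences of 0.93 in Hs606T and 0.07 in Hs343T, and LMCD1, a LIM-domain cofactor, of 0.73 and 0.18. TRPC6, a calcium-permeable channel, read 5.95 and 5.82 with siRECK, against 4.89 and 4.86 with siSCR in Hs606T. The Hs343T arrays read 3.95 on both siRECK arrays, against 3.73 and 3.96 with siSCR. TRPC6 was 2.01-fold higher in Hs606T (adjusted p = 0.000271) and kept its place in 8 of 8 leave-outs, but its Hs343T level lay below the lower quartile of the arrays. GFRA1, a co-receptor for GDNF, had 1.06 in Hs606T and -0.03 in Hs343T, also from a Hs343T level below that quartile, and PRUNE2 had 0.77 and -0.05. The response difference of the 1 other probe set of PRUNE2 did not pass. Those of the 1 other of TRPC6 and of 1 of the 2 others of LIMCH1 passed with the same sign.

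The other 8 higher genes had Hs606T differences between 0.50 and 0.72. They were AMD1 of polyamine synthesis (0.72), CDO1 of cysteine breakdown (0.68), the exchange factor gene ARHGEF4 (0.67), the adhesion receptor gene ADGRG6 (0.65), the thymidine kinase gene TK1 (0.61), PTPN20 (0.56), GLIPR1 (0.51) and MDM2, the ubiquitin ligase of p53 (0.50). Their Hs343T differences lay between -0.26 and 0.07. Of these genes, ARHGEF4, TK1, PTPN20, GLIPR1 and MDM2 held their place in 0 of 8 leave-outs. CDO1 and PTPN20 lost theirs with the filter on low levels. A further 8 genes passed in Hs606T but neither in Hs343T nor in the response difference, and so were not placed. Among these, CXCL3 read 10.69 and 10.59 with siRECK, against 12.21 and 12.23 with siSCR in Hs606T, and 8.62 and 8.56, against 9.13 and 9.23 in Hs343T. Its response difference of -0.99 had an adjusted p of 0.0954. The other 7 were PCDHGA3, CITED2, QPRT, LACTB2, NREP, TMT1A and CLIC3.

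**Figure D3:**
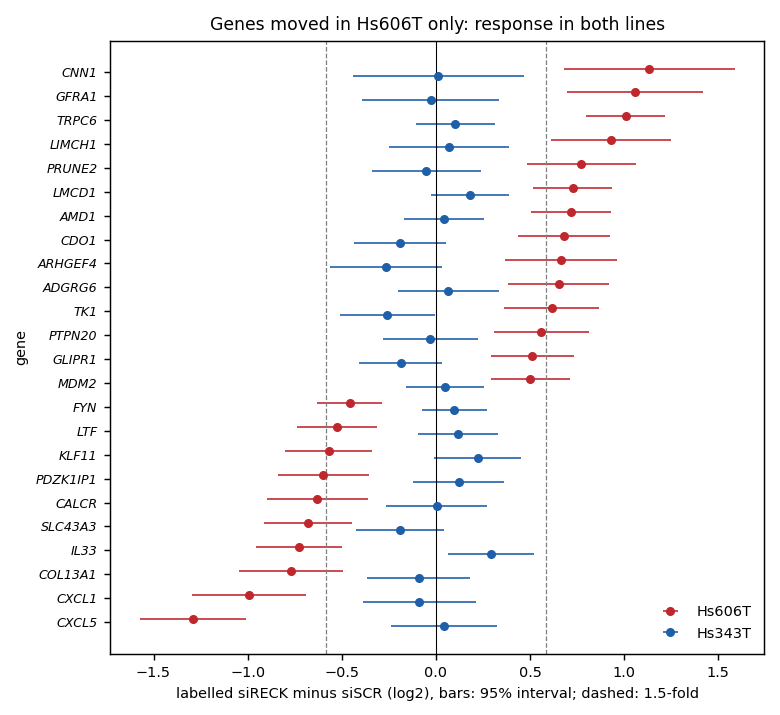
Labelled siRECK minus siSCR difference in log2 units, with its 95% interval, for the 24 genes moved in Hs606T only. Red points are Hs606T and blue points Hs343T, and dashed lines mark 1.5-fold either way. All blue intervals lie within the dashed lines, while the red points run from -1.29 for CXCL5 to 1.13 for CNN1.

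In Hs343T only, 1760 genes or 14.7% moved, 707 higher (5.91%) and 1053 lower (8.8%) with siRECK, and 2039 without the condition on the Hs606T interval. The median Hs343T difference was 0.86 for the 707 and -0.66 for the 1053, while the medians of the same genes in Hs606T were -0.0035 and 0.05. Leaving out the Hs606T siSCR array 1 or 2 gave 1137 or 1130 such genes. IFNB1, the interferon beta gene, had the largest Hs343T difference of the higher genes. It read 12.80 and 12.73 on the Hs343T arrays labelled siRECK, against 4.30 and 4.22 with siSCR. In Hs606T it read 4.21 and 4.33 with siRECK, against 3.87 and 4.15 with siSCR, all below the lower quartile. IFNB1 was 363-fold higher in Hs343T (log2 8.50, SE 0.11, adjusted p = 2.17e-13), its Hs606T difference was 0.26 (95% interval 0.01 to 0.51, adjusted p = 0.447), and the response difference was -8.25 (SE 0.16). Folds against levels this low rest on near-background signal, and no detection calls were used here.

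IDO1, which opens the kynurenine pathway of tryptophan breakdown, read 12.50 and 12.61 with siRECK, against 6.35 and 6.11 with siSCR in Hs343T. In Hs606T IDO1 read 6.33 and 6.12 with siRECK, against 6.22 and 6.17 with siSCR, so all 6 of these siSCR and Hs606T arrays shared 1 level. KYNU, acting further along the same pathway, is the gene described above as lower in Hs606T and higher in Hs343T. PMAIP1, the BH3-only death protein NOXA, read 13.04 and 12.97 with siRECK, against 7.44 and 7.68 with siSCR in Hs343T, while its Hs606T difference was 0.14. PSMB9, an immunoproteasome subunit, had differences of 5.53 in Hs343T and 0.31 in Hs606T, CASP1, the inflammatory caspase, 5.38 and 0.32, and BST2, the virion tether, 4.48 and 0.19.

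The largest fall among genes moved in Hs343T only was that of ZMAT3, a p53 target that binds RNA. It read 9.78 and 9.46 with siRECK, against 9.61 and 9.45 with siSCR in Hs606T. On the Hs343T arrays it read 6.40 and 6.55 with siRECK, against 9.80 and 9.83 with siSCR. Only the Hs343T siRECK arrays stood apart, 10.1-fold lower (log2 -3.34, SE 0.13, adjusted p = 1.5e-09), and the response difference of 3.43 was the largest positive one of all genes. NT5DC2 had differences of -2.87 in Hs343T and -0.15 in Hs606T, FAM171A1 of -2.62 and -0.10, APPL2, an endosomal adaptor, of -2.56 and 0.13, UBE4B, a ubiquitin ligase, of -2.19 and 0.11, and CDK1, the mitotic kinase, of -2.16 and 0.32. CDK1 read 5.92 and 5.91 with siRECK, against 5.58 and 5.62 with siSCR in Hs606T, and 6.85 and 6.58, against 8.92 and 8.84 in Hs343T. CERK, the ceramide kinase, had the largest fall of all in Hs343T, -3.55, but its Hs606T interval from -0.64 to -0.10 passed the 1.5-fold limit and kept it out of the 1760. DLEU1, a noncoding RNA gene, likewise stayed out, with -2.45 in Hs343T and 0.31 in Hs606T.

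**Figure D4:**
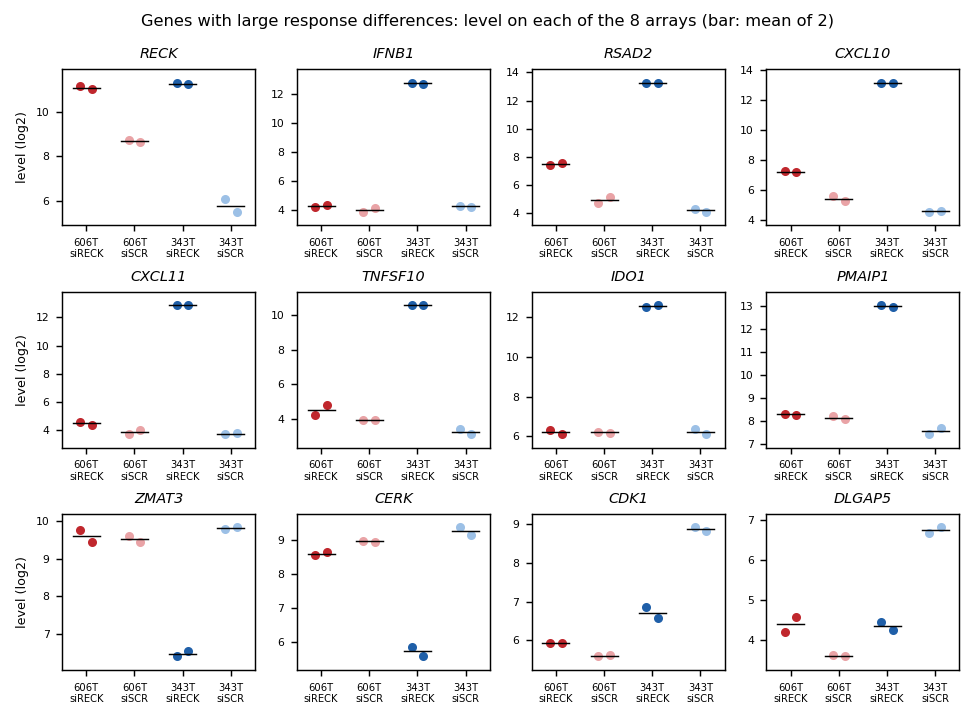
Level in log2 units on each of the 8 arrays, with 1 point per array and a bar at the mean of the 2, for RECK and 11 genes with large response differences. Red columns are Hs606T and blue columns Hs343T, each with siRECK left of siSCR. For IFNB1 and IDO1 only the Hs343T siRECK arrays lie high, and for ZMAT3 and CERK only those arrays lie low.

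Of the 68 genes that passed in the same direction in both lines, 54 were higher and 14 lower with siRECK, and 20 are in the list of interferon-stimulated effectors. The difference between the lines passed for 55, of which 49 were higher and 4 lower with the larger change in Hs343T. CSRP2, a LIM protein of muscle and stellate cells, was the 1 gene higher in both lines with the larger rise in Hs606T, 0.97 against 0.36 in Hs343T, a difference of 0.61 (adjusted p = 0.029). HSD11B1, which makes active cortisol, was the 1 gene lower in both with the larger fall in Hs606T, -1.40 against -0.56 in Hs343T, a difference of -0.84 (adjusted p = 0.00684). The 4 genes with the larger fall in Hs343T were the cystine transporter gene SLC7A11 (-0.56 in Hs606T and -2.76 in Hs343T), RGCC (-1.37 and -2.54), the cathepsin gene CTSL (-0.70 and -1.34) and WDR37 (-0.44 and -1.16). For 13 genes the difference between lines did not pass, among them IL1B (-1.43 in Hs606T and -1.01 in Hs343T) and the heat shock gene HSPA6 (-1.62 and -1.29), both with wide spread.

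In the list of interferon-stimulated effectors, 20 of 33 measured genes passed as higher in Hs606T and 33 of 33 in Hs343T, and 0 passed as lower in either. Over all genes, 83 and 1369 of 11963 passed as higher. For this list and those that follow, the shares of all genes that passed were 0.97% in Hs606T, 27.8% in Hs343T and 18.8% in the response difference. The list's median difference was 1.01 in Hs606T and 4.86 in Hs343T, and all 33 response differences passed as negative, between -6.42 and -0.73 with a median of -4.08. The mean level of the list was 9.67 and 9.71 on the Hs606T arrays labelled siRECK, against 8.56 and 8.57 with siSCR, and 12.08 and 12.10 on the Hs343T arrays labelled siRECK, against 7.19 and 7.24 with siSCR. Hs606T thus stood above Hs343T on the siSCR arrays and below it on the siRECK arrays. RSAD2, the antiviral protein viperin, read 7.46 and 7.60 with siRECK, against 4.72 and 5.13 with siSCR in Hs606T. In Hs343T RSAD2 read 13.22 and 13.26 with siRECK, against 4.32 and 4.11 with siSCR, the latter below the lower quartile. MX1, a GTPase that blocks viral nucleocapsids, read 11.19 and 11.24 with siRECK, against 9.41 and 9.22 with siSCR in Hs606T, and 13.18 and 13.22, against 5.20 and 4.89 in Hs343T. OASL had differences of 1.36 in Hs606T and 7.26 in Hs343T, and HERC6 had a response difference of -5.85.

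IFIT1, which binds viral RNA lacking cap methylation, had the largest Hs606T difference of all genes and was named for that after its values were seen. It read 12.06 and 12.02 with siRECK, against 8.94 and 8.86 with siSCR in Hs606T, and 14.55 and 14.68, against 6.44 and 6.91 in Hs343T. The Hs343T siRECK levels lay close to the highest of all probe sets there, 14.78 on both arrays. The promoters of IFIT1, higher in both lines, and of BST2, moved in Hs343T only, are shown because both hold the core of the interferon-stimulated response element, which was sought on both strands as GAAA, any 2 bases and GAAA again. The sequences are RefSeq windows of build GRCh38.p14, from 250 bases before to 50 after the start. IFIT1 lies on the plus strand (chr10:89392373-89392672) with 2 matches, and BST2 on the minus strand (chr19:17405581-17405880) with 2 overlapping matches. Capitals mark the matches.
IFIT1: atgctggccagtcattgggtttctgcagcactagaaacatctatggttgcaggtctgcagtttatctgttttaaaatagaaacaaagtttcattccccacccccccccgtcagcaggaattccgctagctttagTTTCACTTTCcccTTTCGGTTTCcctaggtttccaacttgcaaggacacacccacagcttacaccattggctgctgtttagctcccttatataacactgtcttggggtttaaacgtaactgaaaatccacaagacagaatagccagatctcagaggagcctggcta
BST2: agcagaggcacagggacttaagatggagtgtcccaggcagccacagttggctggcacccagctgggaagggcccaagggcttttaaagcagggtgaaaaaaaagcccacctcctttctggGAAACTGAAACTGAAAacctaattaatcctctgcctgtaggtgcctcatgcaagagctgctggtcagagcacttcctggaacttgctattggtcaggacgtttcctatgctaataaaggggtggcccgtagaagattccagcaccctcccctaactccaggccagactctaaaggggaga

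The same pattern was found in 3.6% of all 27305 promoters of that length and in 3.0% of the 9563 promoters of tested genes. They were found in 23 of 45 promoters of genes higher in both lines (51.1%), 41 of 578 promoters of genes higher in Hs343T only (7.1%), and 16 of 889 of genes lower in Hs343T only (1.8%). Among the 22 promoters of genes moved in Hs606T only and the 10 of opposite genes, 0 held them. These shares describe the windows, without a test.

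Of 16 RNA sensors and their signalling genes, 5 passed as higher and 0 as lower in Hs606T, and 11 and 2 in Hs343T. The response difference passed as negative for 11 and as positive for 2, which were TRAF3 (0.80) and MAVS (0.56), adaptors of the sensors, both lower with siRECK in Hs343T and named after their values were seen. RIGI read 8.76 and 8.61 with siRECK, against 6.91 and 6.52 with siSCR in Hs606T, and 13.27 and 13.22, against 6.88 and 6.94 in Hs343T. Its siSCR levels were alike in the 2 lines, and the Hs343T siRECK arrays lay far above the Hs606T ones. IFIH1, the MDA5 sensor of long double-stranded RNA, had differences of 1.57 in Hs606T and 7.69 in Hs343T. TLR3, the endosomal sensor of double-stranded RNA, had 0.52 (adjusted p = 0.0495) and 6.32. The Hs343T siSCR levels of IFIH1 and TLR3 lay below the lower quartile. DHX58, the LGP2 regulator of both cytosolic sensors, had 2.90 in Hs343T, and its Hs606T difference of -0.26 did not pass (adjusted p = 0.738).

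Of 22 interferons, receptors and JAK-STAT factors, 2 passed as higher in Hs606T and 14 in Hs343T, with 0 lower in either. The response difference passed as negative for 13 and as positive for 1, STAT4 (0.73), which passed in neither line and was named after its values were seen. USP18, which curbs the interferon receptor and removes ISG15, had differences of 2.16 in Hs606T and 6.01 in Hs343T. SOCS1, a feedback inhibitor of JAK kinases, had 3.26 in Hs343T, against a Hs606T value of 0.40 that did not pass (adjusted p = 0.712). JAK2 had 2.78 in Hs343T, against 0.31 in Hs606T (adjusted p = 0.555). Of 7 genes listed for ISG15 conjugation, 4 passed as higher in Hs606T and 7 in Hs343T. HERC5, the ligase that attaches ISG15, had 1.36 and 7.15, and ISG20, an interferon-induced exonuclease that this list also holds, had 0.39 in Hs606T (adjusted p = 0.699) and 7.25 in Hs343T.

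MHC class I processing passed in 0 of 16 genes in Hs606T and as higher in 15 of 16 in Hs343T, with 14 passing as negative response differences. TAP1, a subunit of the peptide transporter, read 10.39 and 10.42 with siRECK, against 10.02 and 10.03 with siSCR in Hs606T, and 12.59 and 12.67, against 9.38 and 9.36 in Hs343T. The Hs606T groups did not overlap, but the difference of 0.38 did not pass (adjusted p = 0.145). PSMB8, an immunoproteasome subunit, had 2.85 in Hs343T, against 0.39 in Hs606T. ERAP2, a peptide trimmer, read 10.04 and 10.10 with siRECK, against 10.15 and 10.10 with siSCR in Hs606T, and 6.08 and 6.36, against 4.11 and 3.53 in Hs343T. The lines thus differed in ERAP2 level on every array, by more than the Hs343T response of 2.40.

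Among chemokines and interleukins, lower calls outnumbered higher ones in Hs606T, and the reverse held in Hs343T. None was among the 14 opposite genes, and IL1B passed as lower in both lines. Of 30 measured genes, 1 passed as higher and 5 as lower in Hs606T, while 14 passed as higher and 3 as lower in Hs343T, and 18 response differences passed, all negative. CXCL11, a ligand of CXCR3 on T cells, had the largest estimated response difference of all genes, -8.52 (SE 0.69, adjusted p = 3.42e-06). It read 4.57 and 4.34 with siRECK, against 3.70 and 3.96 with siSCR in Hs606T, and 12.86 and 12.88, against 3.71 and 3.74 in Hs343T. All but the Hs343T siRECK values lay near or below the lower quartile, so the size rests on near-background signal, and its 95% interval covers the -8.25 of IFNB1. CXCL10, a ligand of the same receptor, read 7.26 and 7.17, against 5.58 and 5.27 in Hs606T, and 13.14 and 13.12, against 4.54 and 4.60 in Hs343T, so it passed in both (1.79 and 8.56). CCL5, a chemokine that attracts leukocytes, had 6.17 in Hs343T, and the Hs606T value of -0.42 did not pass (adjusted p = 0.458). IL7, a lymphocyte growth factor, had 4.59 in Hs343T, against 0.25 in Hs606T. The 5 lower in Hs606T were CXCL1, CXCL3, CXCL5, IL1B and IL33, and CXCL2, which passed in neither line (-1.34 in Hs606T and 0.89 in Hs343T), passed in the response difference (-2.22, adjusted p = 0.0071). CXCL2 was named after its values were seen.

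NF-kB factors and feedback genes passed as higher in 0 and lower in 1 of 16 in Hs606T, and as higher in 13 in Hs343T, where 0 were lower. The 1 lower gene in Hs606T was TNFAIP6. NFKBIA, the inhibitor IkB alpha, read 10.06 and 10.13 with siRECK, against 10.63 and 10.70 with siSCR in Hs606T, and 11.66 and 11.64, against 9.10 and 9.07 in Hs343T. Its differences were -0.57 in Hs606T (adjusted p = 0.0752) and 2.57 in Hs343T. TNFAIP3, the A20 brake on NF-kB, had -0.49 in Hs606T (adjusted p = 0.0509) and 2.57 in Hs343T. ICAM1 and VCAM1, adhesion molecules for leukocytes, had -0.72 and -1.42 in Hs606T (adjusted p = 0.315 and 0.198), and 2.43 and 3.37 in Hs343T. The signs were therefore opposite in all 4, but none of the 4 Hs606T values passed with the spread estimated from all 16 arrays. None of these genes is among the 14 opposite genes. That count depended on the model, with 34 in the fit of the 8 arrays alone and 4 with the replicate block. The response differences of NFKBIA, TNFAIP3, ICAM1 and VCAM1 passed.

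AP-1 and immediate early factors passed in 0 of 21 in Hs606T and as higher in 12 and lower in 1 in Hs343T. ATF3, a stress-induced factor, read 6.10 and 6.29 with siRECK, against 7.04 and 7.09 with siSCR in Hs606T, and 9.47 and 9.49, against 6.79 and 6.90 in Hs343T. Its differences were -0.86 (adjusted p = 0.105) and 2.63. FOS, EGR1 and NR4A2 had 1.72, 1.56 and 1.58 in Hs343T, and Hs606T values between -0.37 and -0.12 that did not pass. Death ligands, receptors and caspases passed in 0 of 22 in Hs606T and as higher in 12 and lower in 3 in Hs343T. TNFSF10, the death ligand TRAIL, read 4.21 and 4.81 with siRECK, against 3.97 and 3.96 with siSCR in Hs606T, and 10.57 and 10.56, against 3.41 and 3.13 in Hs343T. The Hs606T difference of 0.55 did not pass (adjusted p = 0.299). Apart from the Hs343T siRECK levels and the 4.81 in Hs606T, these TNFSF10 levels lay below the lower quartile, so the size of its change rests on near-background signal. CASP10, an initiator caspase, had 2.62 in Hs343T, against -0.34 in Hs606T. In Hs606T, 3 of the 16 MHC class I genes, 6 of the 21 AP-1 genes and 5 of the 22 death genes had an unadjusted p under 0.05 by limma.

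The mitosis and replication list moved down in Hs343T. Of 59 measured genes, 0 passed as higher and 45 as lower there, with a median of -0.97, while 1 passed as higher and 0 as lower in Hs606T, with a median of 0.08. The 1 was TK1, which held its place among the genes moved in Hs606T only in 0 of 8 leave-outs. In the list 39 response differences passed, all positive. The mean level of the list was between 6.12 and 6.13 on the Hs606T arrays labelled siRECK, against 6.02 and 6.06 with siSCR, and between 6.70 and 6.71 on the Hs343T arrays labelled siRECK, against 7.74 and 7.75 with siSCR. Hs343T thus held the list higher on both kinds of array, and in Hs606T 10 to 14 of the 59 lay below the lower quartile. DLGAP5, a spindle protein, read 4.21 and 4.58 with siRECK, against 3.62 and 3.59 with siSCR in Hs606T, and 4.44 and 4.25, against 6.68 and 6.82 in Hs343T. Its Hs606T difference of 0.79 did not pass (adjusted p = 0.0656), and its response difference was 3.19. The Hs606T siSCR levels of DLGAP5 lay below the lower quartile, where a fall could hardly be read. TOP2A, the topoisomerase of dividing cells, had -2.29 in Hs343T, ASPM, a spindle pole protein, -2.04, and UBE2C, which works with the anaphase-promoting complex, -2.01. Their Hs606T values of 0.57, 0.67 and 0.46 did not pass.

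The promoters of NUSAP1, an opposite gene, and DLGAP5 are shown for the core letters of the cell cycle homology region, TTTGAA, sought on both strands in the same kind of window. NUSAP1 lies on the plus strand (chr15:41332631-41332930) with 1 match, and DLGAP5 on the minus strand (chr14:55191536-55191835) with 3 matches, in capitals.
NUSAP1: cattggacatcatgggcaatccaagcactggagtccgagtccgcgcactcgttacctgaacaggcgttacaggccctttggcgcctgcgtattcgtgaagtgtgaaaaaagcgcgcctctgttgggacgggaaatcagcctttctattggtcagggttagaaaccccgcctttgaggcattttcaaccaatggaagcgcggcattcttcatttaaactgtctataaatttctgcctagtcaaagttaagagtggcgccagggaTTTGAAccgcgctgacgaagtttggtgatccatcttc
DLGAP5: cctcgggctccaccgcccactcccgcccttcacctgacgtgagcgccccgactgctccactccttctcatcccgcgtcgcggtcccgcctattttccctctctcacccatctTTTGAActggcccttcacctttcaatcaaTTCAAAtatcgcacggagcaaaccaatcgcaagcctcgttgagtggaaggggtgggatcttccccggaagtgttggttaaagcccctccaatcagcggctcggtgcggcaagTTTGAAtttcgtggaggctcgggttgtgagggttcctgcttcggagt

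The 6 letters were found in 17 of 48 promoters of the mitosis list (35.4%), 2 of 10 of the opposite genes and 94 of 889 of genes lower in Hs343T only (10.6%), against 15.4% of all promoters and 11.0% of those of tested genes.

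Of 18 p53 targets, 2 passed as higher in Hs606T, and 3 as higher and 7 as lower in Hs343T, and the response difference passed for 6 as positive and 3 as negative, against 18.8% of all genes. Beside ZMAT3, the repair gene DDB2 had -1.01 and CCNG1 -0.82 in Hs343T, and PLK2, a centriole kinase, 1.11, while their Hs606T values of 0.23, 0.12 and 0.07 did not pass. Of 33 ATF4 and unfolded protein response genes, 1 passed as lower in Hs606T, and 2 as higher and 14 as lower in Hs343T, against 27.8% of all genes there. The list had 5 positive and 1 negative response differences that passed, a share near the 18.8% of all genes. The serine synthesis genes PSPH and PSAT1 had -1.13 and -0.70 in Hs343T, and asparagine synthetase ASNS -0.87. Their Hs606T values of 0.50, 0.16 and 0.13 did not pass, and the call on the ASNS response difference was lost in all 8 leave-outs. SLC7A11, the 1 lower gene of the list in Hs606T, read 11.09 and 11.04 with siRECK, against 11.61 and 11.63 with siSCR, and 8.29 and 8.32, against 11.05 and 11.08 in Hs343T. Of 23 cholesterol and fatty acid synthesis genes, 0 passed in Hs606T, where 9 had an unadjusted p under 0.05 by limma, and 3 as higher and 6 as lower in Hs343T, with 6 positive and 1 negative response differences. HMGCS1 rose by 1.05 there, while PMVK, EBP and ACACA had -0.73, -0.64 and -0.77.

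RECK belongs to the matrix proteases and their inhibitors. Of 39 measured, 1 passed as higher and 2 as lower in Hs606T, against 0.97% of all genes, and 5 as higher and 2 as lower in Hs343T, against 27.8%. The response difference passed for 2 as positive and 5 as negative, against 18.8% of all genes, a share near that of the list. PLAU, the urokinase, read 7.24 and 7.53 with siRECK, against 8.46 and 8.42 with siSCR in Hs606T, and 7.32 and 7.45, against 10.49 and 10.56 in Hs343T. The siRECK arrays of both lines were alike, and the fall of -3.14 passed in Hs343T, whereas the value of -1.05 did not in Hs606T (adjusted p = 0.118). PLAUR, its receptor, had 0.88 in Hs343T, against -0.07 in Hs606T, and CTSS, a lysosomal protease of antigen processing, 3.34, against -0.53. The 2 lower in Hs606T were MMP1, the interstitial collagenase (-1.08, against -0.30 in Hs343T), and CTSL.

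Of 30 angiogenic and guidance factors, 1 passed as higher in Hs606T, and 9 as higher and 4 as lower in Hs343T. The 1 was FGF1, which read 9.58 and 9.51 with siRECK, against 8.72 and 8.59 with siSCR in Hs606T, and 10.02 and 9.98, against 7.43 and 7.54 in Hs343T. TYMP, EDN1 and ADM, which encode thymidine phosphorylase, endothelin and adrenomedullin, had 2.06, 1.97 and 1.79 in Hs343T, and Hs606T values between -0.34 and 0.10 that did not pass. Of 18 contractile and cytoskeletal genes, 1 passed as higher in Hs606T, which was CNN1, and 3 as higher and 3 as lower in Hs343T, with 4 positive response differences, shares near those of all genes (27.8% in Hs343T and 18.8% in the response difference). MYLK, the myosin light chain kinase, read 11.07 and 11.10, against 10.85 and 10.84 in Hs606T, and 8.46 and 8.33, against 9.35 and 9.46 in Hs343T. CNN2 had -1.02 in Hs343T, against 0.30 in Hs606T, and VCL, the focal adhesion protein vinculin, passed in the response difference only (0.44, adjusted p = 0.0453). Of 10 epithelial markers, 3 response differences passed, those of the keratins KRT8, KRT18 and KRT19 (1.34, 1.94 and 1.20). The other 7 did not pass and had both signs, from -0.71 for MUC1 to 0.41 for KRT7. KRT8 and KRT19 had -0.64 and -0.92 in Hs343T, and Hs606T values of 0.70 and 0.28 that did not pass (adjusted p = 0.136 and 0.437).

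**Figure D5:**
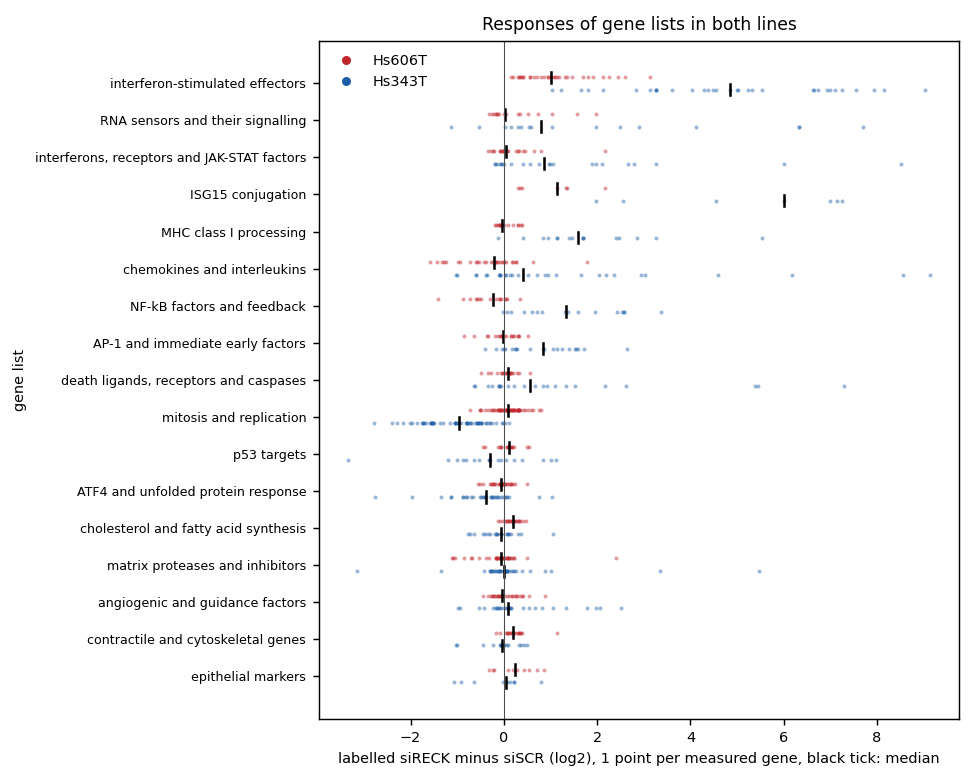
Labelled siRECK minus siSCR difference in log2 units for the measured members of 17 gene lists, with 1 point per gene and a black tick at the median. Red points are Hs606T and blue points, below them, Hs343T. The medians lie furthest apart for the interferon-stimulated effectors (1.01 in Hs606T and 4.86 in Hs343T) and the ISG15 conjugation genes (1.15 and 6.01), and the mitosis list lies at 0.08 and -0.97.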

How the data were processed

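Expression was measured on 16 Affymetrix U133 2.0 arrays, and the deposited table holds the authors' log2 values per probe set and array. The values were made in Partek, per the submitters' processing notes, in a version that is not given in the sources used here, nor is the summary method. The log2 base was read from the values. Nothing was rescaled or filtered. Of 22277 probe sets, 62 controls were left out, and 19064 of the rest had 1 gene symbol and gave 11963 genes, each read from its probe set of highest mean over the 16 arrays. Of these genes, 4310 had over 1 probe set and 864 were read from a cross-hybridising one.

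All 22215 probe sets of the 16 arrays entered 1 model of 8 means in limma 3.58.1 (R 4.3.3; lmFit, contrasts.fit, eBayes), which left 8 residual degrees of freedom, with 3.98 prior ones and a residual SD of 0.13 (median). Tests were 2-sided with Benjamini-Hochberg adjustment over all probe sets. Python 3.11.15 with pandas 2.3.3 and matplotlib 3.10.9 served for tabulation and plots. Data were simulated for the response difference over 22215 probe sets, with 50 changed at each size and independent normal noise. Of these changes, 18% of 1.5-fold, 62% of 2-fold, 92% of 4-fold and 100% of 8-fold were recovered, with 9 false calls. No other probe set was changed there, while 3623 (16.3%) passed in the data, so these rates do not carry over to the data.

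The text names RECK, the 8 largest response differences in each direction, the opposite genes, 6 genes moved in 1 line only per line and direction, and up to 4 passing members with the largest response difference of 17 of the 26 lists. Other members of classes of up to 24 genes were named for completeness. The members and lists were chosen with earlier results of these data known. Alternatives were quantile normalization, median centring, 1 probe set per gene, a filter on low levels, the trend and robust options of eBayes, a fit of the 8 arrays alone, a replicate block and leaving out each array. Leaving out 2 arrays of the invasive lines that deviate together was added after the data were seen. Promoter sequences are from RefSeq (GRCh38.p14).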

Additional observations from a re-analysis of the deposited data

Results flagged for a closer look

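For each of the 98 genes named by rule, the response difference, Hs606T minus Hs343T in log2 units, is given in brackets. All 98 passed the test of the difference itself (limma, adjusted p under 0.05). Apart from RECK, the rules named only genes that passed this test, so their passing was fixed by the choice. Every one of these tests rests on 2 arrays per group, and 9 of the genes lose the call when 1 array is left out. The opposite genes were TRPA1 (-3.85), RAB27B (-2.52), KYNU (-2.31), TXNIP (-1.92), MAP3K5 (-1.65), TNFAIP6 (-1.31), VPS45 (0.91), NOX4 (0.93), SDC2 (0.96), RAB33A (1.20), MFAP3L (1.67), MEST (1.82), KRT18 (1.94) and NUSAP1 (2.40). Genes moved in Hs606T only were CXCL5 (-1.33), IL33 (-1.02), CXCL1 (-0.91), COL13A1 (-0.68), CALCR (-0.63), SLC43A3 (-0.49), LMCD1 (0.55), PRUNE2 (0.82), LIMCH1 (0.86), TRPC6 (0.90), GFRA1 (1.09) and CNN1 (1.12).

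Genes that passed in both lines in the same direction were CXCL10 (-6.77), RSAD2 (-6.42), MX1 (-6.25), IFIH1 (-6.12), OASL (-5.90), HERC6 (-5.85), TLR3 (-5.80), HERC5 (-5.79), RIGI (-4.36), USP18 (-3.85), RECK (-3.07), FGF1 (-1.62) and SLC7A11 (2.21). Genes that passed as higher with siRECK in Hs343T and not in Hs606T began with CXCL11 (-8.52), IFNB1 (-8.25), ISG20 (-6.86), TNFSF10 (-6.75), CCL5 (-6.59), IDO1 (-6.29), PMAIP1 (-5.30), PSMB9 (-5.22), CASP1 (-5.06), VCAM1 (-4.79), IL7 (-4.34), BST2 (-4.29), CTSS (-3.87), ATF3 (-3.50), DHX58 (-3.16), ICAM1 (-3.15), NFKBIA (-3.14) and TNFAIP3 (-3.07). Smaller negative differences of the same kind were those of CASP10 (-2.97), TAP1 (-2.88), SOCS1 (-2.85), JAK2 (-2.47), PSMB8 (-2.46), ERAP2 (-2.46), TYMP (-2.40), EDN1 (-2.06), EGR1 (-1.93), FOS (-1.91), NR4A2 (-1.70), ADM (-1.68), PLK2 (-1.03), HMGCS1 (-0.99) and PLAUR (-0.95).

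Genes that passed as lower with siRECK in Hs343T and not in Hs606T were PMVK (0.79), PSAT1 (0.86), CCNG1 (0.93), ACACA (0.94), ASNS (0.99), EBP (1.06), KRT19 (1.20), DDB2 (1.24), MYLK (1.24), CNN2 (1.32), KRT8 (1.34), PSPH (1.63), PLAU (2.09), UBE4B (2.30), UBE2C (2.46), CDK1 (2.48), FAM171A1 (2.53), APPL2 (2.69), ASPM (2.71), NT5DC2 (2.72), DLEU1 (2.77), TOP2A (2.87), CERK (3.18), DLGAP5 (3.19) and ZMAT3 (3.43). VCL passed in neither line, with a response difference of 0.44.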

How the results depend on the processing

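Counts of passing genes kept within 1.5 times of the reported 2254 (response difference) and 3326 (Hs343T) under all 16 alternatives. The 116 genes of Hs606T became 176 with eBayes trend and robust and 268 without the first MDA-MB-231 empty-vector and first LM24175 RECK arrays, an alternative chosen after seeing the data. The 14 opposite genes became 27 with trend and robust, 34 with only the 8 arrays of both lines and 60 without those 2 arrays. The 24 genes moved in Hs606T only became 58 without those 2 arrays. Leaving out each array in turn gave 1674 to 1927 genes for the response difference, 40 to 97 in Hs606T, 2456 to 3235 in Hs343T, 4 to 13 opposite, 4 to 21 in Hs606T only and 1130 to 1354 in Hs343T only, where the lone array of a group is assumed to vary like the other groups. For Hs606T the low counts were 44 without siRECK array 1, 44 without siSCR array 2 and 40 without siSCR array 1. The opposite genes went to 4 and the Hs606T-only genes to 4 without Hs606T siSCR array 1. They went to 8 and 4 without its array 2, and to 5 and 8 without Hs606T siRECK array 1. The Hs343T arrays moved these counts too: opposite genes were 9 and 8 without siRECK arrays 2 and 1 and 8 without siSCR array 1, and Hs606T-only genes were 13 without siRECK array 1, 13 without siSCR array 2 and 15 without siSCR array 1. Median centring turned the split of response differences to 1036 higher and 1074 lower, and gave 1538 higher and 1593 lower in Hs343T. Same-numbered arrays of siRECK and siSCR did not deviate together (correlation of deviations 0.001 in Hs606T and -0.054 in Hs343T), so no shared effect of the array number was seen. This does not show whether same-numbered arrays were handled as pairs. With the replicate block the counts were 1761 for the response difference, 57 in Hs606T, 2855 in Hs343T, 4 opposite, 9 in Hs606T only and 1314 in Hs343T only. Of 98 named response differences, 0 reversed in any alternative, 9 lost the call in some leave-out (ASNS, CALCR, CNN1, COL13A1, LIMCH1, LMCD1, PSAT1, SLC43A3 and VCL), and 4 of these also in another alternative. The cause was not tested. Of the 14 opposite genes 4, of the 24 1 and of the 1760 818 kept their place in all 16 alternatives.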

Other observations

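For the lists below, the shares of all genes that passed were 0.97% in Hs606T, 27.8% in Hs343T and 18.8% in the response difference, and counts near these say nothing particular of a list. Of 39 extracellular matrix genes, 0 passed in Hs606T (3 at an unadjusted p under 0.05 by limma), and 3 as higher and 3 as lower in Hs343T. Of 32 TGF-beta and BMP genes, 0 passed in Hs606T (2 unadjusted), and 4 as higher and 3 as lower in Hs343T. Of 30 genes of EGF and FGF signalling, 1 passed as higher in Hs606T, and 8 as higher and 7 as lower in Hs343T. Of 21 oxidative stress and metallothionein genes, 1 passed as lower in Hs606T, and 1 as higher and 3 as lower in Hs343T, while the response difference passed for 3 as positive and 5 as negative. Of 20 heat shock genes, 1 passed as lower in Hs606T, and 2 as higher and 6 as lower in Hs343T. Of 7 replication-dependent histone genes, 0 passed in Hs606T (1 unadjusted) and 3 as higher in Hs343T. A further 120 genes passed in the response difference and in neither line, with response differences between -2.22 and 1.39.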
